A study of Mus musculus with 9 samples.

Results

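Cav2 encodes caveolin-2, and it was followed here through 1 probe, A_51_P279552, which the array's annotation ties to the transcript NM_016900. The probe was spotted 10 times on each array, so that 90 spots on 9 arrays were read, out of 60691 probes in all. Of the 46 genes with a named probe, Cav2 was chosen by its log2 signal relative to the 75th percentile of each array, that is, by how this signal differed between the 3 groups of mice described next. Its values are therefore a description of these arrays, and no p-value is given for them.

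Lungs were taken from male C57BL/6J mice at 20 weeks of age, after 12 weeks of feeding. The 3 control mice ate a normal diet and received sterile saline, and the labels give them a body weight of 31 g. The 3 HFD mice ate a high-fat diet with 60% of its calories from fat, also received sterile saline, and weighed 45 g. The 3 HFD + LPS mice ate the same high-fat diet, weighed 45 g and were given lipopolysaccharide (LPS), a component of the outer membrane of Gram-negative bacteria, into the trachea 24 h before collection as a model of acute lung injury. RNA came from the upper and middle lobes of the right lung, with 1 array per mouse. No mice on a normal diet with LPS are among these samples, so a response to LPS is seen here only on the high-fat diet.

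Caveolins are membrane proteins that coat caveolae, the small flask-shaped pits of the plasma membrane that take part in endocytosis, lipid handling and signalling. Caveolin-1 builds caveolae in most cells, smooth muscle included, caveolin-3 does so in striated muscle, and caveolin-2 forms mixed oligomers with caveolin-1, which it needs to leave the Golgi and reach the cell surface. In the lung, caveolin-1 and caveolin-2 are abundant in endothelial cells and in the flat type 1 cells of the alveolar wall. Mice without caveolin-2 keep their caveolae but have thickened, hypercellular alveolar walls. In the RefSeq annotation of the mouse genome (GRCm38.p6), Cav1 is the next gene after Cav2 on chromosome 6, no annotated gene overlaps Cav2, and Cav2 has 2 transcripts. The probe's sequence was not used here, so it is not known whether it reads both.

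The Cav2 probe was bright on every array. All 90 spots were well above background, a call that the scanner software makes when a spot exceeds its background by a set margin, and 0 were saturated. The median raw signal of the Cav2 spots was 32.7 to 235 times the local background, depending on the array. Outlier flags were set on 4 spots, 2 each on HFD replicates 1 and 2, and the other 86 spots were used.

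Cav2 was lowest in the control lungs, higher in the HFD lungs and highest on average in the HFD + LPS lungs. Levels below are the mean log2 signal of the spots minus the 75th percentile of the same array, which places each array on a common scale. The control arrays had levels of 3.89, 4.51 and 4.35 for replicates 1, 2 and 3. The HFD arrays had levels of 4.80, 4.95 and 4.997. The HFD + LPS arrays had levels of 5.26, 4.85 and 5.36. All HFD and HFD + LPS arrays thus lay above the highest control array, while HFD + LPS replicate 2 lay inside the range of the HFD arrays.

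**Figure D1:**
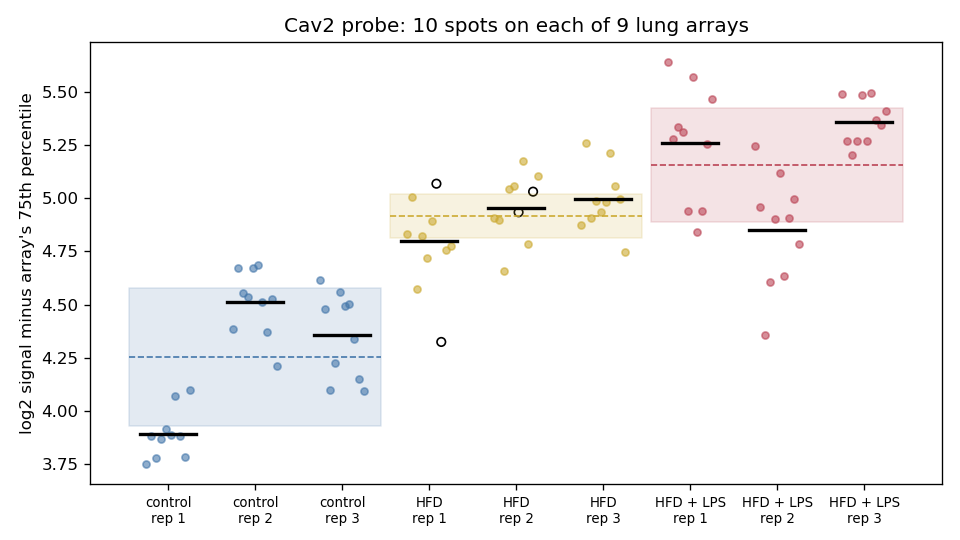
Each point is 1 spot of the Cav2 probe (y axis, log2 signal minus the array's 75th percentile) on 1 of 9 arrays (x axis); open circles are spots with an outlier flag, black bars are array means, and dashed lines with bands are group means ± SD (n = 3). The lowest HFD array mean (4.80) sits above the highest control array mean (4.51), whereas HFD and HFD + LPS arrays overlap.

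The group means were 4.25 ± 0.32 (SD, n = 3) in control, 4.92 ± 0.10 (SD, n = 3) in HFD and 5.16 ± 0.27 (SD, n = 3) in HFD + LPS. On the linear scale, before any adjustment between arrays, the mean Cav2 signal was 729, 1166 and 1114 on the control arrays. It was 1227, 2332 and 1900 on the HFD arrays and 2734, 1864 and 3946 on the HFD + LPS arrays. The order of the group means is the same on this scale. HFD + LPS replicate 2, with 1864, again lay between HFD arrays.

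Compared with control, Cav2 was 0.66 higher in HFD on the log2 scale (standard error 0.24 in limma), a 1.58-fold difference. All 9 pairings of an HFD with a control array gave a higher level in HFD, with differences from 0.29 to 1.11. For 7.02% of the 31546 probes with a value on all these arrays, every HFD array likewise lay above every control array. With any 1 of these 6 arrays left out, fewer arrays had to separate and this share was 10.6% to 15.9%, the highest without HFD replicate 1. A rise at least as large as that of Cav2 was found for 4.89% of the 31924 probes tested. The median difference over all of them was 0.025, with quartiles of -0.17 and 0.23.

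Compared with HFD, Cav2 was 0.24 higher in HFD + LPS (log2, standard error 0.24 in limma), a 1.18-fold difference about as large as its own error. The groups overlapped, and 7 of 9 pairings gave a higher level in HFD + LPS, with differences from -0.15 to 0.56. HFD and HFD + LPS are therefore neighbours in the order of levels that did not separate beyond their spread. A difference at least this large was found for 26.3% of the probes tested, whose median was -0.062. For 9.8% of probes every HFD + LPS array lay above every HFD array, and Cav2 was not among them. With any 1 of these 6 arrays left out the share was 11.8% to 15.6%, the highest without HFD + LPS replicate 1. When each array's median was subtracted in place of the 75th percentile, the Cav2 levels of HFD and HFD + LPS did separate, with 7.26 on the lowest HFD + LPS array and 7.18 on the highest HFD array.

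Compared with control, Cav2 was 0.91 higher in HFD + LPS (log2, standard error 0.24 in limma), a 1.87-fold difference. All 9 pairings were higher in HFD + LPS, with differences from 0.34 to 1.47. The same separation held for 13.3% of probes, and 6.52% had a rise at least as large. The share separated was 36.7% without normalisation between arrays and 8.49% with no filter on dim probes, and with any 1 array left out it was 15.6% to 19.3%. This comparison and that of HFD with control share the 3 control arrays. Every HFD array and every HFD + LPS array above every control array, the pattern that Cav2 has, was found for 2.57% of 31428 probes. As lung pieces were measured whole, more cells that carry Cav2 mRNA and more Cav2 mRNA per cell cannot be told apart.

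**Figure D2:**
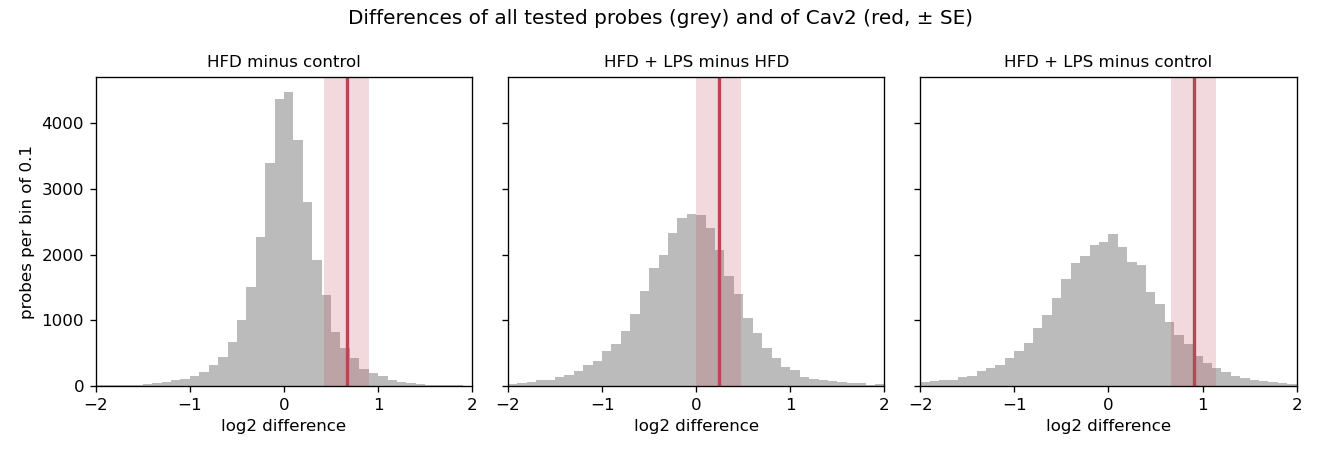
Grey bars count the probes tested by their log2 difference (x axis, bins of 0.1) for each of the 3 comparisons, and the red line with its band is the Cav2 difference ± standard error. Cav2 lies in the right flank for HFD minus control (0.66) and HFD + LPS minus control (0.91) and close to the upper quartile for HFD + LPS minus HFD (0.24); probes beyond 2 in either direction are not drawn.

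The 10 spots allow a look at the measurement within an array. The SD between the Cav2 spots of an array ranged from 0.11 to 0.27 (log2), where the 50 probes spotted 10 times had a median SD of 0.11 to 0.19. The widest scatter was found on HFD + LPS replicates 1 and 2, with SDs of 0.27 and 0.26, and the narrowest on HFD + LPS replicate 3, with 0.11. Spots of an array share its RNA, so they measure the precision of reading and not the spread between mice. At each of the 10 spot positions the HFD mean lay above the control mean, by 0.52 to 0.83. HFD + LPS lay above control at each position, by 0.63 to 1.21. HFD + LPS lay above HFD at 9 of 10 positions, with differences from -0.20 to 0.59. Between arrays of a group the SD of Cav2, pooled over the groups, was 0.25, against a median of 0.37 over the probes tested.

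The brightness of the arrays differed between the groups on average. The HFD arrays overlapped both other groups, and the HFD + LPS arrays were all brighter than the control arrays. The 75th percentile before adjustment, a measure of how bright an array was, averaged 5.68 ± 0.07 (log2, SD, n = 3) in control, 5.86 ± 0.38 (SD, n = 3) in HFD and 6.24 ± 0.31 (SD, n = 3) in HFD + LPS. HFD replicate 1 was the dimmest of the 9 arrays, with 5.46, and its Cav2 level was 4.80. Before this percentile was subtracted, its mean log2 Cav2 signal was 10.26 against 10.18 on the highest control array. HFD + LPS replicate 3 was the brightest, with 6.58, and had the highest Cav2 level. With brightness as a covariate, a fit added after the data were seen, Cav2 differed by 0.58 for HFD minus control, 0.068 for HFD + LPS minus HFD and 0.65 for HFD + LPS minus control. The lowest Cav2 level of the control group and that of the HFD + LPS group came from the array with the smallest share of probes well above background in its group, 40.6% for control replicate 1 and 32.6% for HFD + LPS replicate 2. In the HFD group the smallest share, 48.4%, was that of replicate 2 and the lowest Cav2 level that of replicate 1. The part of this share in the Cav2 values was not tested. Without control replicate 1 the HFD minus control difference was 0.48. Without HFD + LPS replicate 2 the HFD + LPS minus HFD difference was 0.39, and the HFD + LPS minus control difference was 1.06.

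**Figure D3:**
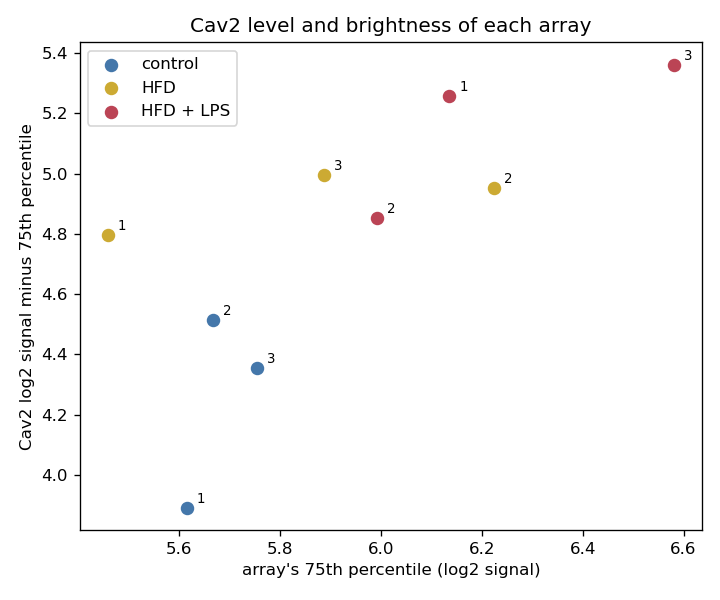
Each point is 1 array, placed by its 75th percentile (x axis, log2 signal) and its Cav2 level (y axis, log2 signal minus that percentile), with the replicate number beside it. HFD replicate 1 lies farthest to the left (5.46) and above all 3 control arrays in level, and its log2 signal before the subtraction was 10.26 against 10.18 on the highest control array.

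The position of an array was also unevenly spread over the groups. Arrays scanned at the same time were taken as 1 slide, so slide and scan cannot be told apart. By this rule HFD + LPS replicate 3 was alone on slide 2, and all other arrays were on slide 1. Within slide 1, HFD + LPS was 0.14 above HFD (n = 2 and 3) and 0.80 above control (n = 2 and 3), and the HFD minus control difference was the same as over all arrays. Row 1 of a slide was used for all control arrays, for HFD replicate 1 and for HFD + LPS replicate 3, and row 2 for the remaining 4 arrays. Within row 1 of slide 1, HFD replicate 1 was 0.55 above the mean of the 3 control arrays. Within row 2, HFD + LPS was 0.080 above HFD (n = 2 and 2). Row 1 held 1 HFD and 1 HFD + LPS array, on different slides, which differed by 0.56.

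The direction of the Cav2 differences did not turn in any setting tried. HFD minus control ranged from 0.48 to 0.84 (log2) over 21 settings, and each stayed within the spread between arrays of the value reported. Some settings could change only the standard error and say nothing on the stability of a difference. These were the 2 other filters on dim probes, the fit to the 6 arrays compared and the replicate block. A block for slide likewise could not change HFD minus control. HFD + LPS minus HFD ranged from 0.068 to 0.62 and HFD + LPS minus control from 0.65 to 1.46. Under the 7 other ways tried to correct, summarise or scale the spots, and relative to the other named probes, the HFD arrays and the control arrays did not overlap. HFD and HFD + LPS overlapped in all of them but the one in which each array's median was subtracted.

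**Figure D4:**
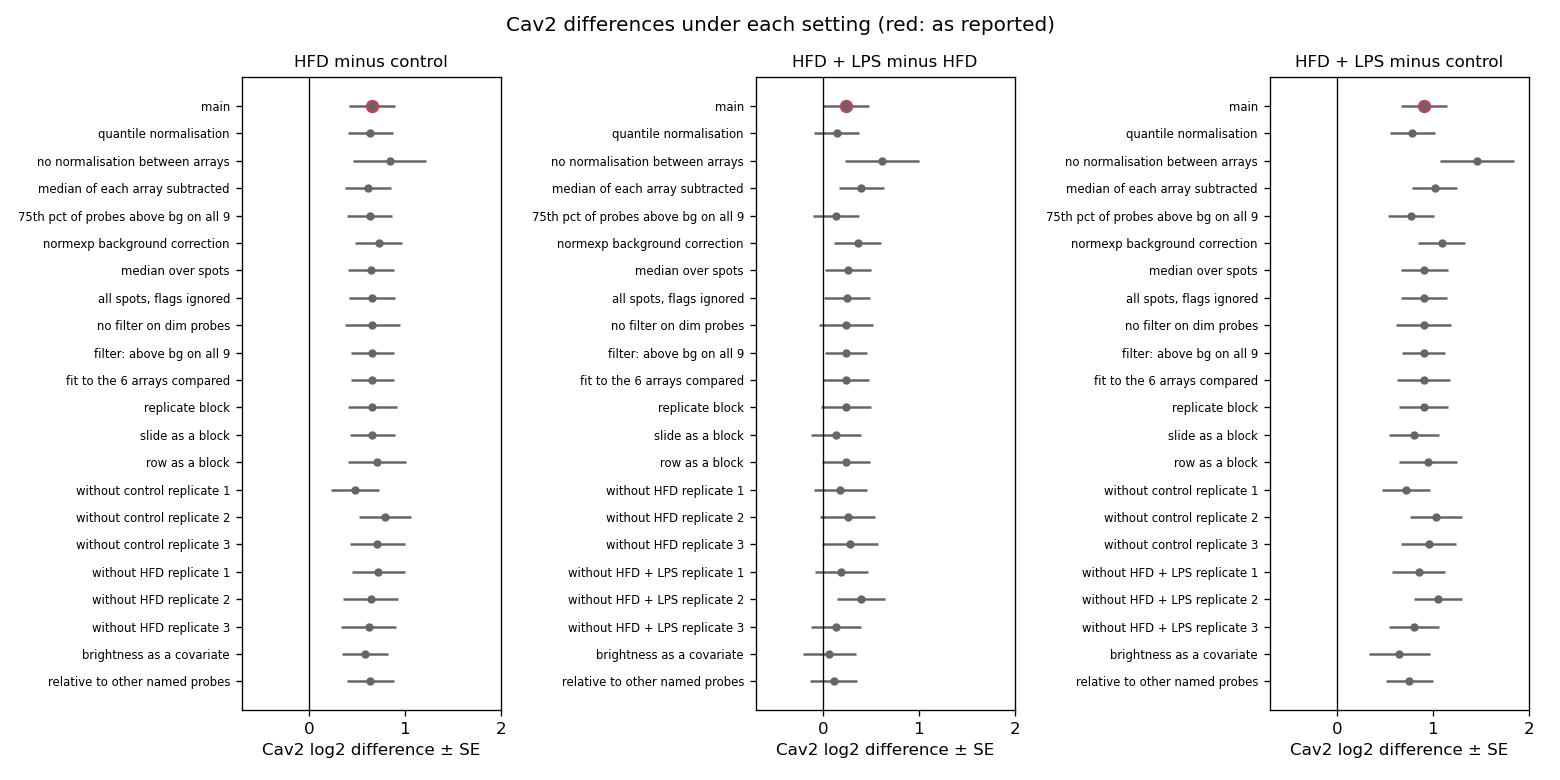
Cav2 log2 differences (x axis, points with standard errors from limma) for the 3 comparisons under each setting (y axis), with the value as reported in red at the top. All points lie to the right of 0; for HFD + LPS minus HFD the errors often cross it.

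Other genes of caveolae could not be followed. Of 31 genes in the lists of caveolins and cavins, caveola neck proteins and receptors or enzymes held in caveolae, only Cav2 had a named probe, since only 50 probes carry a transcript accession and 46 of these were assigned a gene symbol. Cav1, the partner of caveolin-2, and Cavin1, which stabilises the caveolar coat, were among those with no named probe. The same was true of all 13 endothelial and 9 type 1 alveolar markers, of the markers of the other lung and blood cell types listed, and of all 14 LPS response genes. The labelled tissue could therefore not be checked against its markers, and the levels of the cell types that carry Cav2 are not known for these arrays.

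Among the 39 other named genes that were tested, Trp53rka, Lhfp and Gamt had patterns most like that of Cav2. Likeness was measured as Pearson's r over the 9 arrays and is given as a description, since both values of a point come from the same array and carry its brightness and slide position. Trp53rka, which encodes a p53-regulating protein kinase, had r = 0.91, although it was dim, was well above background on 7 of 9 arrays and had r = -0.39 when the background was corrected by normexp, a model-based method, instead. Lhfp, which encodes a small membrane protein, had r = 0.89. Gamt, the methyltransferase that makes creatine, had r = 0.87. As background, 0.302%, 0.496% and 0.745% of the probes tested had an r with Cav2 at least as high. When the group means were taken out, r was 0.68, 0.55 and 0.78 in that order. Other named genes then had a higher r, Atg3 with 0.83, Bambi with 0.83 and Gsta4 with 0.79. The ranking thus holds only with the group differences included.

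The levels of Lhfp were 3.54, 3.97 and 3.75 in control, 4.19, 4.40 and 4.11 in HFD and 4.29, 4.30 and 4.25 in HFD + LPS. All HFD and HFD + LPS arrays lay above the control arrays for Lhfp, while HFD replicate 2 lay above all HFD + LPS arrays. Lhfp was named for its likeness to Cav2 on these same arrays, so the shared separation is no separate result. Over all probes, 2.57% of 31428 separated in this way. The Lhfp difference was 0.48 for HFD minus control and 0.049 for HFD + LPS minus HFD (standard error 0.20 each in limma). For Gamt these differences were 0.35 and 0.11.

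Mzb1 and Actb were among the named genes that ran most against Cav2 over the 9 arrays, group differences included. Within groups other named genes ran further against it, such as H2-Q7 with r = -0.85 and Gsdmd with r = -0.66. Mzb1, which encodes a chaperone of antibody-secreting B cells, had r = -0.79 (-0.28 within groups, and -0.20 without normalisation between arrays) and differed from control by -0.73 in HFD and by -1.33 in HFD + LPS (standard error 0.34 each in limma). Actb, which encodes the cytoskeletal protein β-actin and is a common reference in qPCR, had r = -0.63 (-0.26 within groups) and differed by -2.46 for HFD + LPS minus HFD (standard error 0.57 in limma). For HFD minus control the Actb difference of -0.14 was smaller than its standard error of 0.57 and than the spread of the HFD arrays, whose levels were 1.69, -0.76 and 0.67. As background, 2.23% and 10.6% of the probes tested had an r with Cav2 as low as those of Mzb1 and Actb. The Actb probe was well above background on 8 of 9 arrays. Its levels were 1.09, 0.10 and 0.82 in control and -1.23, -2.31 and -2.23 in HFD + LPS. On every array it was dimmer than the Cav2 probe. Whether so dim a probe follows the amount of Actb mRNA was not tested.

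**Figure D5:**
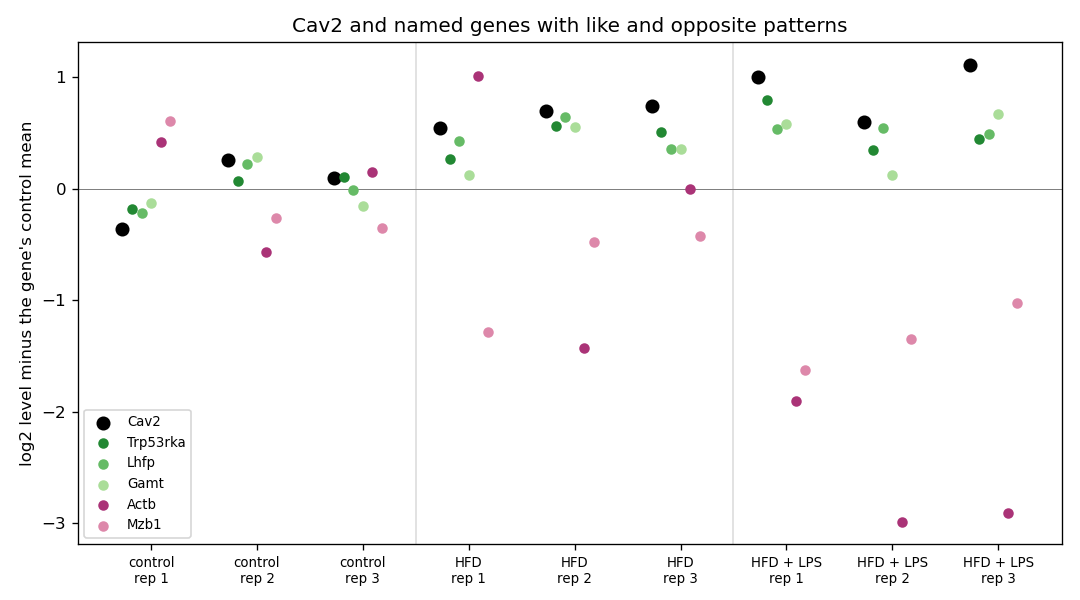
Points give the log2 level of each gene on each array minus that gene's mean over the control arrays (y axis), for Cav2 (black), the 3 named genes most like it (green) and 2 of those least like it (pink). The green genes lie above 0 on every HFD + LPS array together with Cav2, while the pink genes lie below 0 there.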

How the data were processed

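Microarrays of 9 mouse lungs were scanned and read by the authors with Agilent Feature Extraction 11.0.1.1, per the labels and file headers. The deposited intensity of a spot is its signal after background subtraction and detrending, not normalised between arrays. The deposited table of log2 values, which the authors normalised with GeneSpring GX, covers 60641 probes and has no row for the 50 accession probes, so it served only for shares of probes. Control spots, 132 design probes and spots with outlier flags were left out. The log2 intensities of a probe's spots were averaged, and the 75th percentile of the array was subtracted. Differences and standard errors came from limma 3.58.1 (R 4.3.3) with a term for group alone, fitted to the 9 arrays together (6 residual degrees of freedom), over 31924 probes well above background on at least 3 arrays. A probe counted as such where a share of 0.5 or more of its spots did. Counts of separated groups used the probes with a value on every array compared. The fit was tested on simulated data. Arrays of a group correlated with r from 0.938 to 0.973, and no 2 arrays were identical. The number of arrays limits the precision. Cav2, the gene lists and the settings were chosen with earlier results of these data known. The genes named were Cav2, list genes with a probe, and the 3 named genes with the highest and the 3 with the lowest r, of which 1 is not reported here. Probes were named through RefSeq transcripts.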

Additional observations from a re-analysis of the deposited data

How the results depend on the processing

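With 3 arrays per group, each value rests on few mice. Over the settings run, some of which could not change them, all Cav2 differences kept their direction. Without normalisation between arrays, HFD + LPS minus HFD was 0.62 and HFD + LPS minus control 1.46, since array brightness then stays in the values, and the share of separated probes for HFD + LPS above control was 36.7%. That share was 8.49% with no filter on dim probes. With brightness as a covariate, chosen after the data were seen, HFD + LPS minus control was 0.65. With each array left out, Cav2 ranged from 0.48 to 0.79 (HFD minus control), 0.14 to 0.39 (HFD + LPS minus HFD) and 0.72 to 1.06 (HFD + LPS minus control), with the lowest values without control replicate 1, HFD + LPS replicate 3 and control replicate 1. The shares of separated probes ranged from 10.6% to 15.9%, 11.8% to 15.6% and 15.6% to 19.3% in the same order, as fewer arrays separate more easily. When the replicate numbers entered as a block, the Cav2 differences could only stay at 0.66, 0.24 and 0.91, and their standard error was 0.26. Deviations of same-numbered arrays correlated with r from -0.21 to 0.30, so the numbers do not pair the mice. For Trp53rka, r with Cav2 was -0.39 with normexp background correction and 0.68 within groups. Within groups r was 0.55 for Lhfp, 0.78 for Gamt, -0.26 for Actb and -0.28 for Mzb1. Without normalisation it was 0.96 for Gamt and -0.20 for Mzb1. With each array left out r ranged from 0.84 to 0.96 for Trp53rka, 0.77 to 0.92 for Lhfp, 0.83 to 0.90 for Gamt, -0.73 to -0.51 for Actb and -0.84 to -0.58 for Mzb1. Where no cause is named, the cause was not tested. The authors' log2 values could not be tried for Cav2, which their table does not list, and normexp was run on median signals in place of mean signals.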
